A study of Mus musculus with 18 samples.

Results

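The 36 genes described here report stress in the endoplasmic reticulum (ER) and shortage of amino acids. They were taken as a named list in 4 roles: stress sensors and transcription factors, ER chaperones with their quality control partners, amino acid and one-carbon genes, and regulators that feed back on the response. A member entered through the probe set whose only gene symbol was its own, and the brightest such probe set was used. In this way 35 of the 36 members were measured among 22180 genes, 7 sensors and factors, 17 chaperones and quality control genes, 8 amino acid genes and 3 feedback regulators. Pdia4 was left out because its probe set is shared with a microRNA gene. The cells were C2C12, an established mouse myoblast line whose cells fuse into multinucleated myotubes when serum is withdrawn. Medium with 2% horse serum started differentiation, lentivirus carrying an shRNA was added 36 h later, and total RNA was collected 48 h after infection. The 3 groups of 6 arrays received a control scramble shRNA, a Nup210 shRNA or a Mef2c shRNA. Nup210 codes for a membrane protein of the nuclear pore, and Mef2c for a muscle transcription factor. All 18 samples therefore carried a lentivirus, and no uninfected group was analysed here. The labels name no separate cultures behind the samples of a group. The p-values thus weigh differences against the variation among these samples, part of which may be technical.

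Unfolded proteins in the ER are sensed by 3 membrane proteins. ATF6 is released as a transcription factor by cleavage, IRE1 (encoded by Ern1) splices the Xbp1 mRNA into the form that encodes an active factor, and PERK (encoded by Eif2ak3) phosphorylates the translation factor eIF2. ATF6 and XBP1 act on genes of chaperones, disulfide isomerases and the degradation machinery, whereas eIF2 phosphorylation favours translation of ATF4, which acts on genes of amino acid synthesis, uptake and one-carbon metabolism. ATF4 also responds to amino acid shortage through another eIF2 kinase, without ER stress. Differentiating myoblasts are known to pass through a phase of ER stress signalling. The arrays measured transcript level only: splicing of Xbp1, cleavage of ATF6, phosphorylation of eIF2 and protein were not measured.

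Levels are log2 expression values, and a difference of -1 would be a halving. Olfactory and vomeronasal receptor genes, which muscle cells are not known to use, gave a guide to background: the 95th percentile of 1394 such genes was 5.47, and 34 of the 35 members had a mean above it. The targeted transcripts were checked first. Mef2c lay at 17.9% of the control level under its shRNA (log2 difference -2.48, two-sided exact permutation p = 0.00216, the smallest that 924 splits of the arrays can give, adjusted p = 0.00648). Nup210 lay at 93.1% under its own shRNA (log2 difference -0.10, exact permutation p = 0.0801, adjusted p = 0.12). Its mean of 5.75 on the control arrays was close to the guide, so its probe set checks the label weakly. The 9 myotube markers examined, among them Myog, Acta1 and Des, were above the guide in all groups. Under it in all groups were 3 of 4 adipocyte markers (Adipoq, Fabp4, Lep), 4 of 5 leukocyte markers (Ptprc, Adgre1, Csf1r, Lyz2) and 3 of 4 endothelial markers (Pecam1, Cdh5, Tek). The remaining marker of each list was above it in all groups: Plin1, Cd68 and Kdr, with means of 5.58, 6.26 and 5.69 on the control arrays. None of these 13 markers was called in either comparison with control.

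Under Mef2c shRNA, 20 of the 35 members fell and 1 rose against control. Under Nup210 shRNA, 6 fell and 0 rose, with 1 rise, that of Cth, at an unadjusted limma p under 0.05. Members were called in limma, fitted over all genes, at a Benjamini-Hochberg adjusted p under 0.05. At that rule 6.42% of all genes fell and 4.34% rose with Mef2c shRNA, compared with 57.1% and 2.86% of the members. With Nup210 shRNA 5.11% of all genes fell and 3.05% rose, compared with 17.1% and 0% of the members. The median log2 difference of the members was -0.18 with Mef2c shRNA and -0.067 with Nup210 shRNA, beside 0.020 and 0.015 for all genes. Most members are well expressed, and well expressed genes were called more often: with genes below the background guide left out, 13.7% of 13017 genes fell with Mef2c shRNA, compared with 24 of 34 members, and 11% fell with Nup210 shRNA, compared with 7 of 34. The 2 comparisons share the control arrays.

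Every Mef2c array lay below every control array for 15 members, an arrangement found for 4.77% of all genes. Every Nup210 array lay below every control array for 6 members, against 3.71% of all genes. Set directly against each other, the shRNA groups differed in 18 members: 14 were higher with Nup210 shRNA than with Mef2c shRNA (7.1% of all genes were) and 4 were lower (6.93% of all genes were). For 11 members every Nup210 array lay above every Mef2c array (4.5% of all genes), and for 1, Atf6, every Nup210 array lay below (4.12% of all genes). With genes below the background guide left out, 14.2% of 13017 genes were higher and 13.7% lower, compared with 17 and 6 of 34 members. The count of lower members is near that share and is not read as a result about the members. In the fit over all genes the 4 lower members were Atf6, Xbp1, Dnajb11 and Psat1. Each of these had a lower mean with Nup210 shRNA than with control. The largest difference between the shRNA groups was that of Cth, at 0.89.

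**Figure D1:**
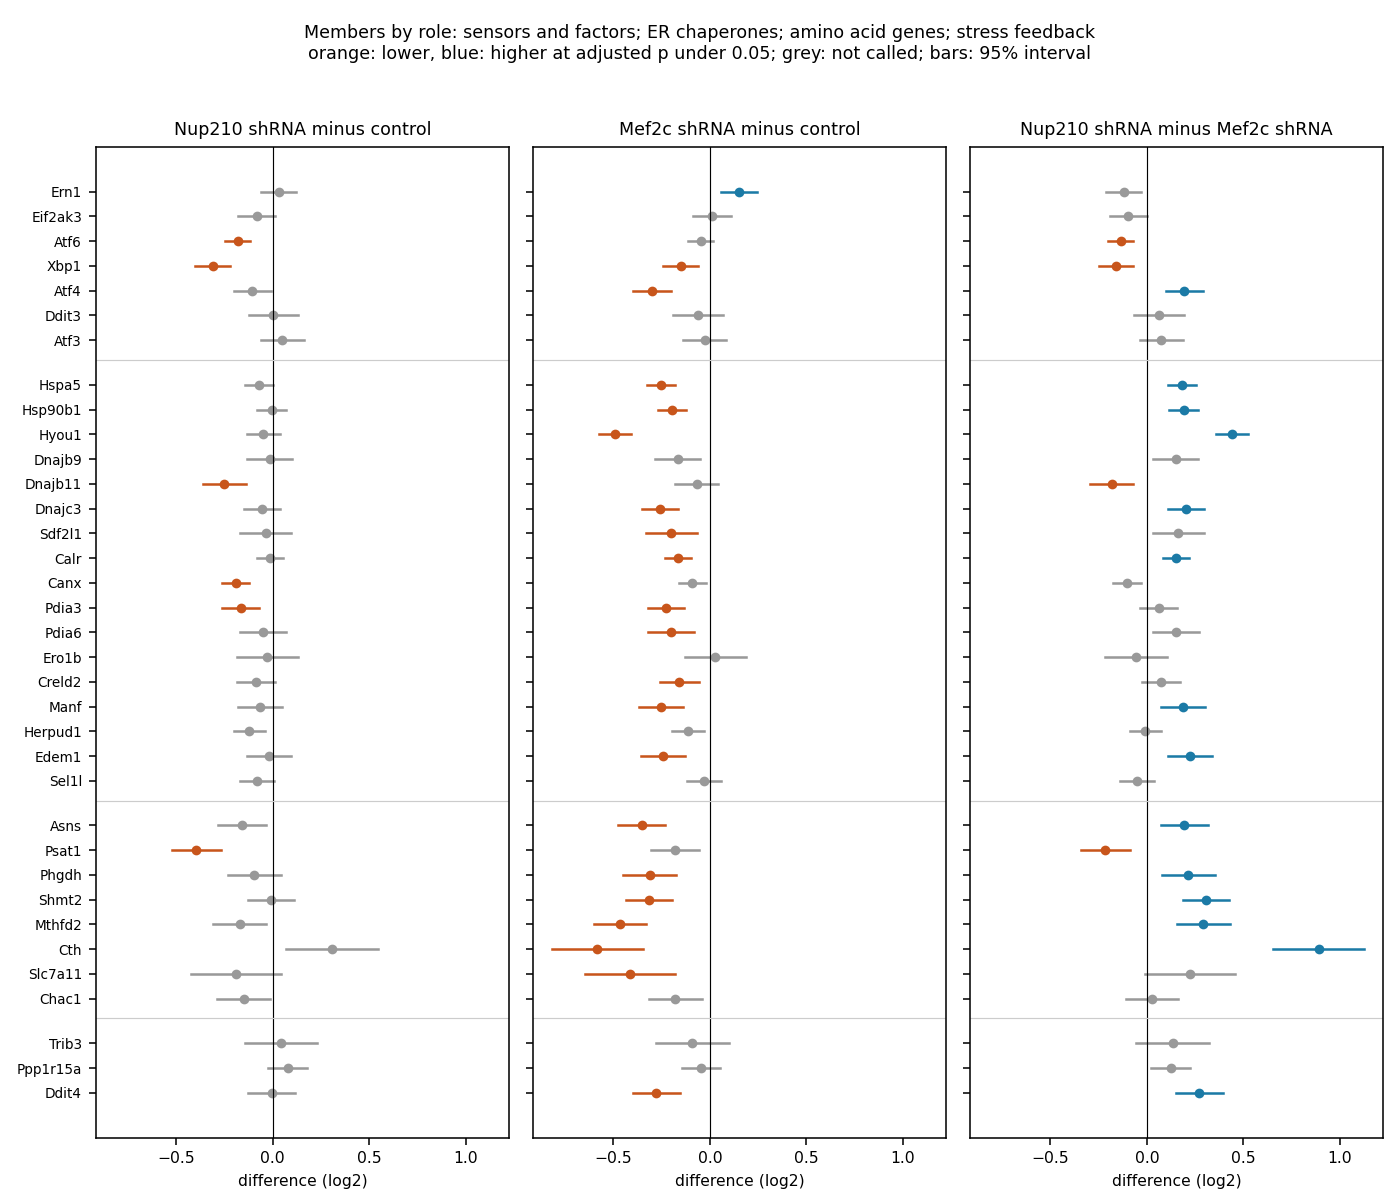
Log2 difference of each member (x axis, 95% confidence interval from limma, 6 arrays a group) for Nup210 shRNA minus control, Mef2c shRNA minus control and Nup210 minus Mef2c shRNA, grouped by role. Orange points were called lower (6, 20 and 4 members), blue points higher (0, 1 and 14), and grey points were not called.

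**Figure D2:**
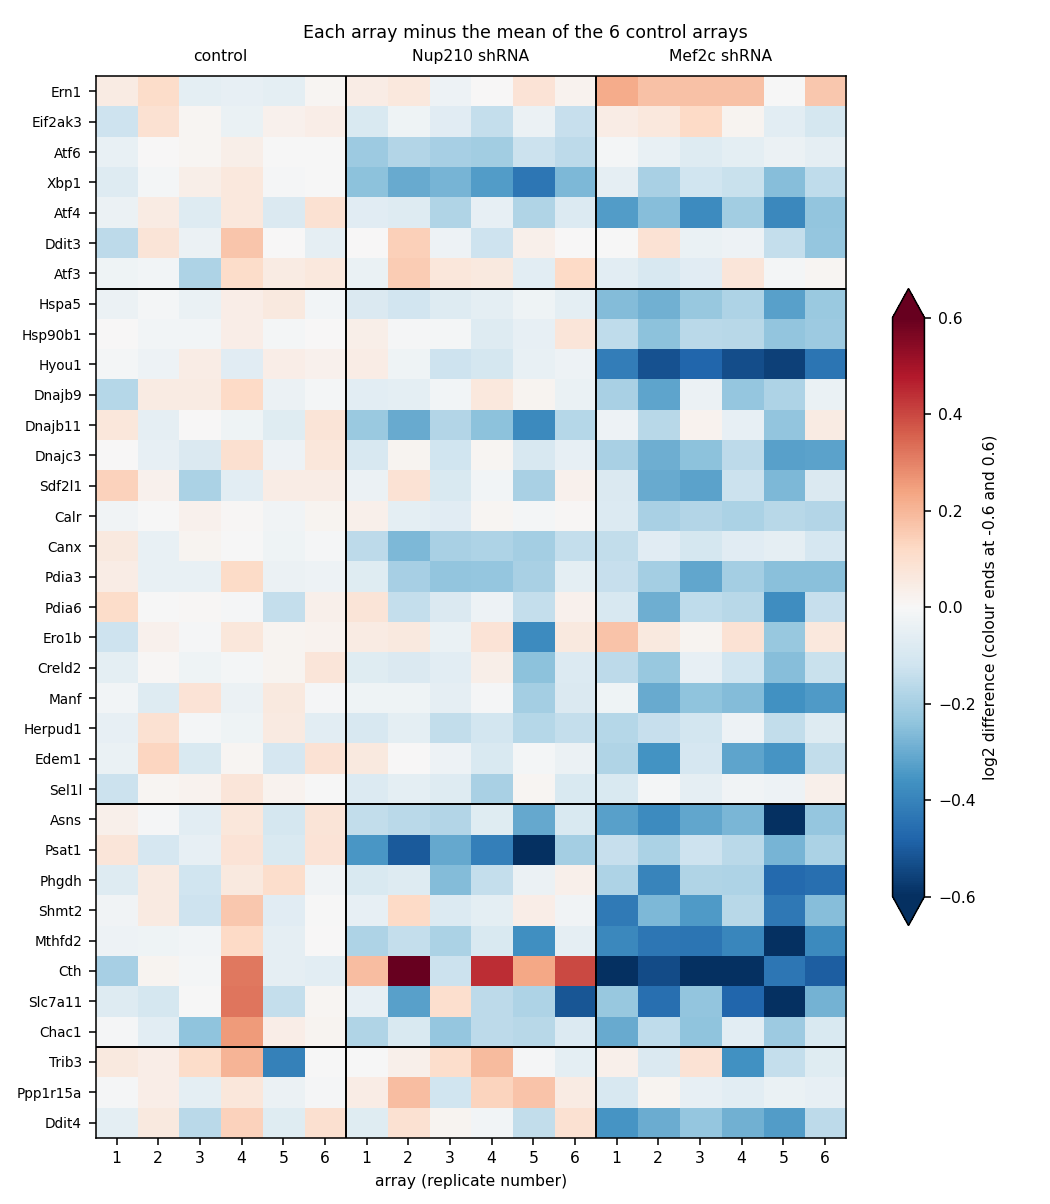
Difference of each array (columns, 6 per group) from the mean of the 6 control arrays for each member (rows, grouped by role), on the log2 scale, with colour ending at -0.6 and 0.6. Hyou1 is blue on all 6 Mef2c shRNA arrays, and Xbp1, Atf6, Canx and Psat1 are blue on all 6 Nup210 shRNA arrays.

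Among the sensors and transcription factors, 2 of 7 fell with Nup210 shRNA (Atf6 and Xbp1), and 2 fell (Atf4 and Xbp1) and 1 rose (Ern1) with Mef2c shRNA. The falls were 28.6% of the role in each comparison, beside 5.11% and 6.42% of all genes in the same fit. The rise was 14.3% of the role, beside 4.34%. The fit without genes below the background guide gave 11% and 13.7% for falls and 9.53% for rises. These small counts are not read as a result about the role. Xbp1 ranged from 10.09 to 10.23 on the control arrays (median 10.16), from 9.73 to 9.92 on the Nup210 arrays (median 9.87) and from 9.91 to 10.11 on the Mef2c arrays (median 10.02). All Nup210 arrays were below all control arrays, while the Mef2c arrays overlapped both groups. The level with Nup210 shRNA was 80.6% of control (log2 difference -0.31, SE 0.043, limma adjusted p = 0.000142). With Mef2c shRNA it was 90.1% of control (log2 difference -0.15, adjusted p = 0.0272), and that call was lost without Mef2c array 2 or 5 or control array 3 or 4 (adjusted p 0.0572 to 0.0672). Xbp1 was lower with Nup210 than with Mef2c shRNA (log2 difference -0.16, adjusted p = 0.0151).

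Atf6, the membrane-bound precursor of the chaperone factor, had the smallest SE of all members. It lay between 10.51 and 10.59 on the control arrays (median 10.56), between 10.34 and 10.43 with Nup210 shRNA (median 10.37) and between 10.48 and 10.54 with Mef2c shRNA (median 10.51). The Nup210 arrays were below every array of both other groups. The fall with Nup210 shRNA was 0.18 on the log2 scale, to 88.2% of control (SE 0.031, adjusted p = 0.000975). Against Mef2c shRNA the difference was -0.13 (adjusted p = 0.0053). The difference of -0.05 between Mef2c shRNA and control was not called (95% confidence interval -0.11 to 0.02, adjusted p = 0.407).

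Atf4, the factor known to act on the amino acid genes, had its lowest mean with Mef2c shRNA. Its values were 9.67 to 9.85 on the control arrays (median 9.76), 9.58 to 9.71 with Nup210 shRNA (median 9.68) and 9.37 to 9.55 with Mef2c shRNA (median 9.46). All Mef2c arrays were below all arrays of both other groups. Mef2c shRNA left 81.2% of the control level (log2 difference -0.30, SE 0.046, adjusted p = 0.000265), and Nup210 shRNA exceeded Mef2c shRNA by 0.19 (adjusted p = 0.00705). The difference between Nup210 shRNA and control was -0.11 and was not called (95% confidence interval -0.20 to -0.01, adjusted p = 0.199).

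Ern1, which encodes the sensor that splices Xbp1 mRNA, was the only one of the 35 members called higher in a comparison with control. It spanned 8.06 to 8.23 on the control arrays (median 8.10), 8.09 to 8.20 with Nup210 shRNA (median 8.15) and 8.11 to 8.34 with Mef2c shRNA (median 8.29), so the groups overlapped. The rise with Mef2c shRNA was 0.15 (SE 0.044, adjusted p = 0.0318). It was lost on leaving out any of Mef2c arrays 1, 2, 3, 4 and 6 or control arrays 3, 4, 5 and 6 (adjusted p 0.0534 to 0.0739), and after centring arrays on their medians (log2 difference 0.13, adjusted p = 0.105, the highest over all alternatives, the lowest being 0.00638). Eif2ak3, which encodes PERK, and the stress-induced factors Ddit3 (CHOP) and Atf3 were called in none of the 3 comparisons. Their differences from control ran from -0.08 for Eif2ak3 with Nup210 shRNA to 0.05 for Atf3 with Nup210 shRNA.

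**Figure D3:**
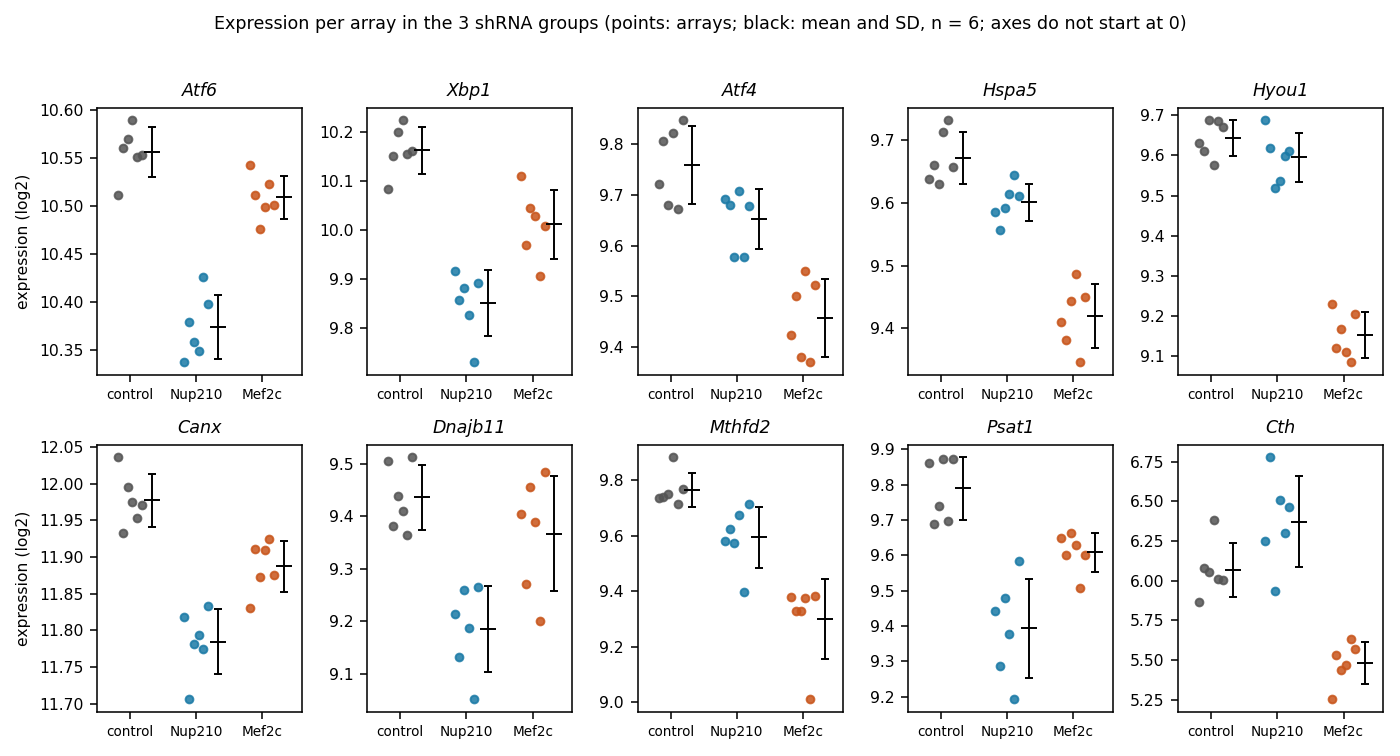
Expression per array (y axis, log2, axes not starting at 0) of 10 members in the control, Nup210 shRNA and Mef2c shRNA groups, with mean and SD of 6 arrays in black. Atf6, Xbp1, Canx, Dnajb11 and Psat1 have their lowest mean with Nup210 shRNA, and Atf4, Hspa5, Hyou1, Mthfd2 and Cth have theirs with Mef2c shRNA.

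The promoters of the members show which of them carry the elements through which the chaperone arm and the ATF4 arm are known to act. RefSeq promoter windows of mouse build GRCm38.p6, from 250 bases before to 50 after the start, were held for 32 of the 36 members. The set of windows used here held none for Hyou1, Cth, Atf6 and Manf. Both strands were searched, and positions count the start base as 0. The ER stress response element (ERSE, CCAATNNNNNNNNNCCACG), bound by ATF6 with the CCAAT factor NF-Y, was matched in 39 of 32851 windows (0.119%) and in 8 members, all of the chaperone role: Hspa5, Hsp90b1, Dnajc3, Calr, Canx, Pdia6, Ero1b and Creld2. These were 8 of the 16 chaperone genes with a window, and none of the 7 amino acid genes with a window had a match. The shorter ERSE-II (ATTGG and CCACG with 1 base of any kind between them) was matched in 12 windows (0.0365%), among them Dnajb11 and Herpud1, and the XBP1 element (TGACGTGG) in 222 windows (0.676%) and no member. The core of the amino acid element bound by ATF4 with C/EBP proteins (TGATGNAA, here CARE) was matched in 1304 windows (3.97%) and in 6 members: Asns, Slc7a11, Chac1, Atf3, Trib3 and Herpud1. Asns, Slc7a11 and Chac1 were 3 of the 7 amino acid genes with a window.

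The 250 bases before the start of Hspa5, which encodes the chaperone BiP, are shown whole (chr2:34771840-34772089, plus strand) because its ERSE lies close to the start, at positions -65 to -47. Capitals mark the fixed letters of the element.
Hspa5: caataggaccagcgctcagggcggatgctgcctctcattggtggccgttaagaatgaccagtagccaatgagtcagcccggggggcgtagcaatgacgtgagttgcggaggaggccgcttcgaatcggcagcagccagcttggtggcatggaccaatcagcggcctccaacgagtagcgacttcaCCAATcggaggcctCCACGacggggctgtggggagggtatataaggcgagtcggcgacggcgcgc

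The ERSE matches of further chaperone genes, with 9 bases on each side, are given 5′ to 3′ on the strand of the gene, because Dnajc3, Hsp90b1, Calr, Pdia6 and Creld2 fell with Mef2c shRNA and Canx with Nup210 shRNA. Capitals again mark the fixed letters. Where the element lies on the opposite strand it reads CGTGG before ATTGG, as in Calr, Creld2 and the nearer match of Hsp90b1.
Dnajc3 (chr14:118937818-118937854, plus strand): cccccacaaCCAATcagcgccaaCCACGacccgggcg
Hsp90b1, farther match (chr10:86705629-86705665, minus strand): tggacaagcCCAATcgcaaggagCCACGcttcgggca
Hsp90b1, nearer match (chr10:86705524-86705560, minus strand): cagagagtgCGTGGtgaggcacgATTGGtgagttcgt
Calr (chr8:84847066-84847102, minus strand): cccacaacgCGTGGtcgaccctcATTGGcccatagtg
Pdia6 (chr12:17266482-17266518, plus strand): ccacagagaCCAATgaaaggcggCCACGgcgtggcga
Creld2 (chr15:88819511-88819547, plus strand): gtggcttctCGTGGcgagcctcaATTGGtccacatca
Canx (chr11:50325791-50325827, minus strand): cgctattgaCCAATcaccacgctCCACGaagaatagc

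The ERSE-II match of Dnajb11, the chaperone with the largest fall under Nup210 shRNA, lies at positions 7 to 17, just past the start.
Dnajb11 (chr16:22857843-22857871, plus strand): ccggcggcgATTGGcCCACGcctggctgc

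The ATF4-type matches of the amino acid genes are shown likewise. Slc7a11 has a pair facing each other, and the printed stretches of that pair overlap.
Asns (chr6:7693216-7693241, minus strand): ccagccacaTGATGaAActtcccgca
Slc7a11, farther match (chr3:50443663-50443688, minus strand): tcatgtggcTGATGcAAacctggaga
Slc7a11, nearer match (chr3:50443644-50443669, minus strand): ctggagaatTTgCATCAtcatgcagc
Chac1 (chr2:119351040-119351065, plus strand): tccctgccgTTgCATCActcctgcca

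**Figure D4:**
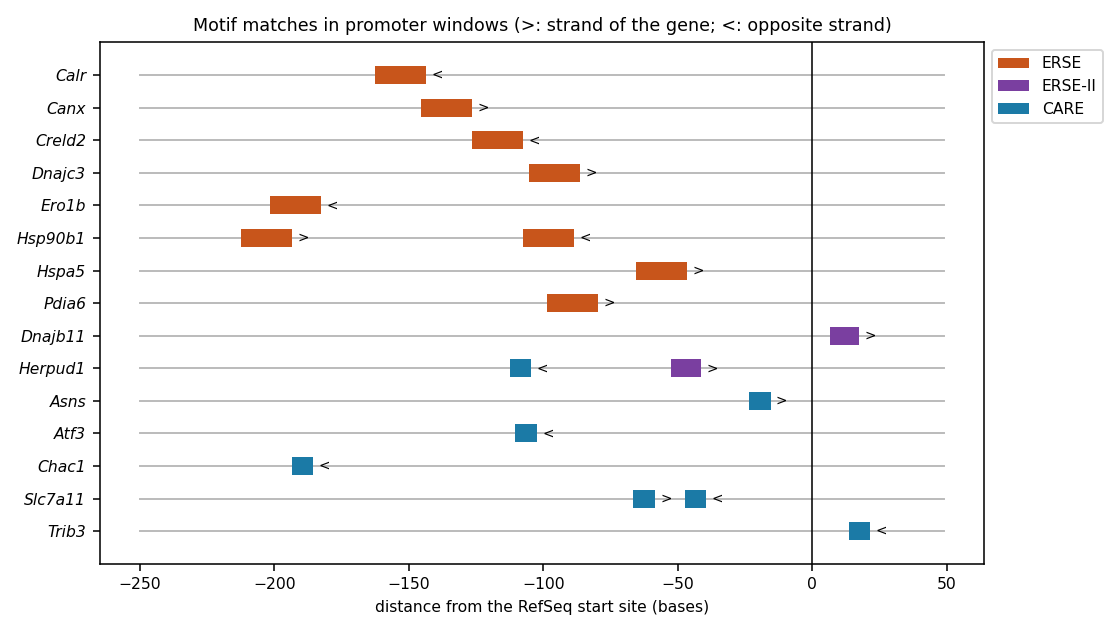
Position of ERSE (orange), ERSE-II (purple) and CARE (blue) matches in the promoter windows of the 15 members with a match, in bases from the RefSeq start site (x axis, 250 before to 50 after); arrowheads give the strand. The 9 ERSE matches lie before the start, and those of Dnajb11 and Trib3 lie after it.

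The chaperone genes fell more widely with Mef2c than with Nup210 shRNA: 11 of 17 were called lower in the first comparison and 3 of 17 in the second, and 7 of 17 were higher with Nup210 than with Mef2c shRNA when these groups were compared directly. The falls were 64.7% and 17.6% of the role, beside 6.42% and 5.11% of all genes in the same fit. The separate fit without genes below the background guide, which calls more genes, gave 13.7% and 11% for all its genes. The 7 genes higher with Nup210 than with Mef2c shRNA were 41.2% of the role. Beside them stand 7.1% of all genes in the same fit and 14.2% in the separate fit. Of the 8 chaperone genes with an ERSE match, 6 fell with Mef2c shRNA (median log2 difference -0.18) and 1, Canx, with Nup210 shRNA. Of the 7 tested genes with a window and no ERSE match, 3 fell with Mef2c shRNA (median -0.17) and 2, Dnajb11 and Pdia3, with Nup210 shRNA. Dnajb11 and Herpud1, among these 7, have an ERSE-II match. Hyou1 and Manf, which have no window, both fell with Mef2c shRNA and were not called with Nup210 shRNA. Pdia4 has a window but was not tested. These counts are a description, and a match does not show that a factor was bound.

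Hyou1, a partner of BiP that exchanges its nucleotide, had the largest difference from control of all chaperone genes. It ranged from 9.58 to 9.69 on the control arrays (median 9.65), from 9.52 to 9.69 with Nup210 shRNA (median 9.61) and from 9.09 to 9.23 with Mef2c shRNA (median 9.15). The Mef2c arrays lay far below both other groups, which overlapped each other. Mef2c shRNA left 71.2% of the control level (log2 difference -0.49, SE 0.040, adjusted p = 4.62e-07). The difference of -0.05 with Nup210 shRNA was not called (95% confidence interval -0.13 to 0.04, adjusted p = 0.563), and that between the shRNA groups was 0.44 (adjusted p = 5.18e-07).

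Hspa5 itself lay between 9.63 and 9.73 on the control arrays (median 9.66), between 9.56 and 9.64 with Nup210 shRNA (median 9.60) and between 9.35 and 9.49 with Mef2c shRNA (median 9.43). All Mef2c arrays were again below all others, while the highest Nup210 array reached into the control range. The level with Mef2c shRNA was 84.0% of control (log2 difference -0.25, SE 0.035, adjusted p = 9.34e-05). With Nup210 shRNA the difference was -0.07 (95% confidence interval -0.14 to 0.002, adjusted p = 0.266). Between the shRNA groups it was 0.18 (adjusted p = 0.00131).

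Dnajc3, a co-chaperone of BiP that also restrains PERK, spanned 9.61 to 9.79 (median 9.68) on the control arrays, 9.57 to 9.71 (median 9.62) with Nup210 shRNA and 9.37 to 9.54 (median 9.42) with Mef2c shRNA. Only the Mef2c arrays stood clear of the other groups. Its fall with Mef2c shRNA was 0.26 on the log2 scale, to 83.7% of control (SE 0.044, adjusted p = 0.000758), and Nup210 shRNA exceeded Mef2c shRNA by 0.20 (adjusted p = 0.00387). Manf, a small secreted protein of stressed cells, went from 6.60 to 6.76 (median 6.66) on the control arrays, from 6.47 to 6.67 (median 6.63) with Nup210 shRNA and from 6.31 to 6.65 (median 6.39) with Mef2c shRNA. Mef2c array 1 alone, at 6.65, reached the control range. The fall with Mef2c shRNA was 0.26, to 83.8% of control (SE 0.054, adjusted p = 0.0041). Nup210 shRNA exceeded Mef2c shRNA by 0.19 (adjusted p = 0.0247). That call did not hold without Nup210 array 1, 2 or 4 or Mef2c array 2, 5 or 6 (adjusted p 0.0511 to 0.0591).

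Hsp90b1, the ER member of the HSP90 family, spanned 11.95 to 12.01 (median 11.97) on the control arrays, 11.90 to 12.05 (median 11.96) with Nup210 shRNA and 11.72 to 11.82 (median 11.78) with Mef2c shRNA. The Mef2c arrays were below both other groups. Its log2 difference was -0.20 for Mef2c shRNA against control (adjusted p = 0.000983) and 0.19 for Nup210 against Mef2c shRNA (adjusted p = 0.000842). Edem1, which directs misfolded glycoproteins to degradation, spanned 8.40 to 8.63 (median 8.49) on the control arrays, 8.41 to 8.56 (median 8.48) with Nup210 shRNA and 8.14 to 8.40 (median 8.25) with Mef2c shRNA. The highest Mef2c array touched the lower end of the control range. The corresponding differences were -0.24 (adjusted p = 0.00661) and 0.22 (adjusted p = 0.00868). A second Edem1 probe set had a mean of 4.69 on the control arrays, under the background guide, and averaging both removed the calls (adjusted p = 0.359 and 0.341, against 0.00142 and 0.00222 at the lowest over all alternatives).

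The other 5 chaperone genes called lower with Mef2c shRNA were the lectin chaperone Calr (-0.16, adjusted p = 0.0026), its disulfide isomerase partner Pdia3 (-0.23, adjusted p = 0.00257), the isomerase Pdia6 (-0.20, adjusted p = 0.0257), Creld2 (-0.16, adjusted p = 0.0373) and the BiP partner Sdf2l1 (-0.20, adjusted p = 0.0493). Calr was also higher with Nup210 than with Mef2c shRNA (log2 difference 0.15, adjusted p = 0.00359). For Calr and Pdia3 all Mef2c arrays were below all control arrays, whereas the arrays of the other 3 overlapped. The Pdia6 call was lost without Mef2c array 2 or 5 or control array 1 or 6 (adjusted p 0.0541 to 0.0662). That of Creld2 was lost without any of Mef2c arrays 1, 2, 4, 5 and 6 or control arrays 2 to 6 (0.0503 to 0.0888). The Sdf2l1 call was lost in 13 of the 18 fits that left out 1 array, which were those without Nup210 arrays 1, 3, 4 and 6, Mef2c arrays 2 to 5 and control arrays 1, 2, 4, 5 and 6 (0.0545 to 0.117). Dnajb9, Dnajb11, Canx, Ero1b, Herpud1 and Sel1l were not called, with differences from -0.17 for Dnajb9 (adjusted p = 0.0627) to 0.03 for Ero1b (adjusted p = 0.878).

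With Nup210 shRNA all 17 chaperone genes had means below control, by 0.01 to 0.25 on the log2 scale, and 3 of them were called. Of all 22180 genes, 9950 had means below control. The other 14 chaperone genes were not called, and the smallest difference, -0.006 for Hsp90b1, was within its SE of 0.035. The genes were measured on the same arrays, so their signs are not independent. Dnajb11, a co-chaperone that delivers clients to BiP, spanned 9.36 to 9.51 on the control arrays (median 9.42), 9.05 to 9.26 with Nup210 shRNA (median 9.20) and 9.20 to 9.48 with Mef2c shRNA (median 9.40). The Nup210 arrays were all below the control arrays, and the Mef2c arrays overlapped both groups. The level with Nup210 shRNA was 84.1% of control (log2 difference -0.25, SE 0.053, adjusted p = 0.00548). With Mef2c shRNA the difference was -0.07 (95% confidence interval -0.18 to 0.04, adjusted p = 0.499). Between the shRNA groups it was -0.18 (adjusted p = 0.0272), a call lost without Nup210 array 2 or 5 or Mef2c array 1, 3, 4 or 6 (adjusted p 0.0532 to 0.0681).

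Canx, the membrane-bound lectin chaperone of newly made glycoproteins, ranged from 11.93 to 12.04 on the control arrays (median 11.97), from 11.71 to 11.83 with Nup210 shRNA (median 11.79) and from 11.83 to 11.93 with Mef2c shRNA (median 11.89). Both shRNA groups lay below every control array and overlapped each other at 11.83. Only the difference with Nup210 shRNA passed the test, at -0.19 or 87.5% of control (SE 0.034, adjusted p = 0.00131). That with Mef2c shRNA was -0.09 (95% confidence interval -0.16 to -0.02, adjusted p = 0.106), and that between the shRNA groups was -0.10 (adjusted p = 0.0527). Canx and its soluble relative Calr thus had their lowest means in different groups.

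Pdia3 lay between 11.32 and 11.48 on the control arrays (median 11.34), between 11.13 and 11.31 with Nup210 shRNA (median 11.17) and between 11.06 and 11.23 with Mef2c shRNA (median 11.14). Both shRNA groups were below the control arrays and overlapped each other. The difference with Nup210 shRNA was -0.17, to 89.2% of control (SE 0.045, adjusted p = 0.0292). This call was lost on leaving out any of Nup210 arrays 2, 3, 4 and 5 or control arrays 1 and 4 (adjusted p 0.0607 to 0.0747). Leaving out Nup210 arrays 2, 4 and 5 together, which had the lowest weights in a weighted fit, left Canx as the only chaperone gene called with Nup210 shRNA (adjusted p = 0.144 for Dnajb11 and 0.34 for Pdia3, against 0.000378 and 0.00329 at the lowest over all alternatives).

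In the amino acid and one-carbon role, 6 of 8 genes fell with Mef2c shRNA and 1, Psat1, with Nup210 shRNA. These are 75.0% and 12.5% of the role, beside 6.42% and 5.11% of all genes in the same fit. The fit without genes below the background guide gave 13.7% and 11% for all its genes. The Nup210 count, 1 gene, is near that last share and is not read as a result about the role. With the replicate number as a block in the fit, Asns and Mthfd2 were also called lower with Nup210 shRNA. The medians of the 8 log2 differences were -0.33 and -0.16. Cth, which makes cysteine from cystathionine, had the largest differences of all members in both comparisons that involve Mef2c shRNA. Its values were 5.87 to 6.38 on the control arrays (median 6.03), 5.94 to 6.78 with Nup210 shRNA (median 6.38) and 5.25 to 5.63 with Mef2c shRNA (median 5.50). The Mef2c arrays were below all others, and the Nup210 arrays ran from inside the control range to above it. The fall with Mef2c shRNA was 0.58, to 66.7% of control (SE 0.11, adjusted p = 0.00189), with the mean of 5.48 lying at the background guide, where array values compress differences. With Nup210 shRNA the difference was 0.31 (95% confidence interval 0.07 to 0.54, adjusted p = 0.113), and without Nup210 array 3 it was called higher (0.39, adjusted p = 0.0183). Nup210 shRNA exceeded Mef2c shRNA by 0.89 (adjusted p = 2.19e-05).

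Mthfd2, an enzyme of mitochondrial folate metabolism, lay between 9.71 and 9.88 on the control arrays (median 9.75), between 9.40 and 9.71 with Nup210 shRNA (median 9.60) and between 9.01 and 9.38 with Mef2c shRNA (median 9.35). The 3 groups formed steps, with the Mef2c arrays below the Nup210 arrays and the highest Nup210 array at the lower edge of the control range. Mef2c shRNA left 72.5% of the control level (log2 difference -0.46, SE 0.065, adjusted p = 9.34e-05). The difference with Nup210 shRNA was -0.17 and was not called (95% confidence interval -0.31 to -0.04, adjusted p = 0.124). Between the shRNA groups it was 0.29 (adjusted p = 0.00379).

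Shmt2, which passes a carbon from serine to folate in mitochondria, ranged from 10.26 to 10.54 on the control arrays (median 10.37), from 10.30 to 10.50 with Nup210 shRNA (median 10.35) and from 9.95 to 10.22 with Mef2c shRNA (median 10.08). Only the Mef2c arrays stood apart. The difference was -0.31 with Mef2c shRNA (SE 0.056, adjusted p = 0.00102) and -0.01 with Nup210 shRNA (95% confidence interval -0.13 to 0.11, adjusted p = 0.964). Nup210 shRNA exceeded Mef2c shRNA by 0.31 (adjusted p = 0.000829).

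Asns, asparagine synthetase and a standard ATF4 target, spanned 9.76 to 9.95 on the control arrays (median 9.88), 9.56 to 9.79 with Nup210 shRNA (median 9.71) and 9.27 to 9.63 with Mef2c shRNA (median 9.55). The Mef2c arrays lay below all control arrays, and the Nup210 arrays overlapped both groups. The level was 78.3% of control with Mef2c shRNA (log2 difference -0.35, SE 0.059, adjusted p = 0.000512) and 89.6% with Nup210 shRNA (-0.16, adjusted p = 0.115). The shRNA groups differed by 0.19 (adjusted p = 0.0318), which did not hold without Nup210 array 1, 2, 4 or 6 or Mef2c array 2 or 5 (adjusted p 0.0512 to 0.0696).

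The serine synthesis enzymes among the members, Psat1 and Phgdh, did not follow one order. Psat1, the second enzyme, ranged from 9.69 to 9.87 on the control arrays (median 9.80), from 9.19 to 9.58 with Nup210 shRNA (median 9.41) and from 9.51 to 9.66 with Mef2c shRNA (median 9.61). Both shRNA groups lay below every control array. The fall with Nup210 shRNA was 0.40, to 76.0% of control (SE 0.060, adjusted p = 0.000344), and the difference of -0.18 with Mef2c shRNA was not called (adjusted p = 0.062). Psat1 was lower with Nup210 than with Mef2c shRNA (log2 difference -0.21, adjusted p = 0.0204, and 0.0503 without Nup210 array 2). Phgdh, the first enzyme, spanned 7.71 to 7.94 (median 7.85) on the control arrays, 7.58 to 7.87 (median 7.75) with Nup210 shRNA and 7.37 to 7.65 (median 7.55) with Mef2c shRNA. Its Mef2c arrays were below all control arrays, while its Nup210 arrays overlapped both groups. Its fall with Mef2c shRNA was 0.31 (SE 0.065, adjusted p = 0.00364), and its difference with Nup210 shRNA was -0.10 (adjusted p = 0.456). Phgdh was higher with Nup210 than with Mef2c shRNA (log2 difference 0.22, adjusted p = 0.0322), a call lost without Nup210 array 1, 2, 5 or 6 or Mef2c array 2, 5 or 6 (adjusted p 0.0551 to 0.0786). Psph, the third enzyme and not a member, had its lowest mean with Mef2c shRNA, as Phgdh did. Its log2 difference from control was -0.41 with Mef2c shRNA (adjusted p = 0.000429) and -0.15 with Nup210 shRNA (adjusted p = 0.219). Between the shRNA groups it was 0.26 (adjusted p = 0.0107).

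Slc7a11, the cystine transporter, lay at 4.36 to 4.82 on the control arrays (median 4.46), 3.99 to 4.60 with Nup210 shRNA (median 4.33) and 3.68 to 4.28 with Mef2c shRNA (median 4.13). All 18 values were under the background guide, so its call with Mef2c shRNA (log2 difference -0.41, adjusted p = 0.0199) rests on a probe set whose level cannot be told from background. The Slc7a11 call was also lost without control array 4 (adjusted p = 0.053). Chac1, which degrades glutathione, was not called with Nup210 shRNA (-0.15, adjusted p = 0.19) or with Mef2c shRNA (-0.18, adjusted p = 0.0937).

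Of the feedback regulators, Ddit4, an inhibitor of the growth kinase complex mTORC1, ranged from 7.28 to 7.58 on the control arrays (median 7.44), from 7.29 to 7.53 with Nup210 shRNA (median 7.44) and from 7.08 to 7.28 with Mef2c shRNA (median 7.15). The control and Nup210 arrays overlapped, and the highest Mef2c array met the lowest control array. Ddit4 fell by 0.28 with Mef2c shRNA, to 82.5% of control (SE 0.058, adjusted p = 0.00345), and was 0.27 higher with Nup210 than with Mef2c shRNA (adjusted p = 0.00281). Trib3, a pseudokinase that binds ATF4, and Ppp1r15a, which directs a phosphatase to eIF2, were called in none of the 3 comparisons. Their differences from control lay between -0.09 and 0.08.

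The chaperone and the amino acid genes were then set side by side as means per array, each gene first taken relative to its control mean. With Mef2c shRNA the 17 chaperone genes averaged -0.18 (arrays from -0.26 to -0.13) and the 8 amino acid genes -0.35 (arrays from -0.50 to -0.29). Over these genes every Mef2c array had a lower amino acid mean than any had for chaperones. That amino acid mean includes Slc7a11 (-0.41), whose values lie under the background guide, and Cth (-0.58), whose Mef2c mean lies at it. Without these genes the separation was not complete. The amino acid mean of Mef2c array 4 then lay above the chaperone means of Mef2c arrays 2 and 5 (-0.23 and -0.26). With Nup210 shRNA the averages were -0.08 (from -0.14 to -0.04) and -0.11 (from -0.17 to -0.06), and their ranges overlapped. Control arrays spread from -0.02 to 0.02 for the chaperone genes and from -0.08 to 0.17 for the amino acid genes, the highest being control array 4. The lowest array of both roles in both shRNA groups carried the number 5. No p is given for these means, since the genes were chosen with results of these arrays known. The precision of a single gene was of the same order as many of these differences: SEs of members ran from 0.031 for Atf6 to 0.11 for Cth, against a median of 0.080 over all genes.

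**Figure D5:**
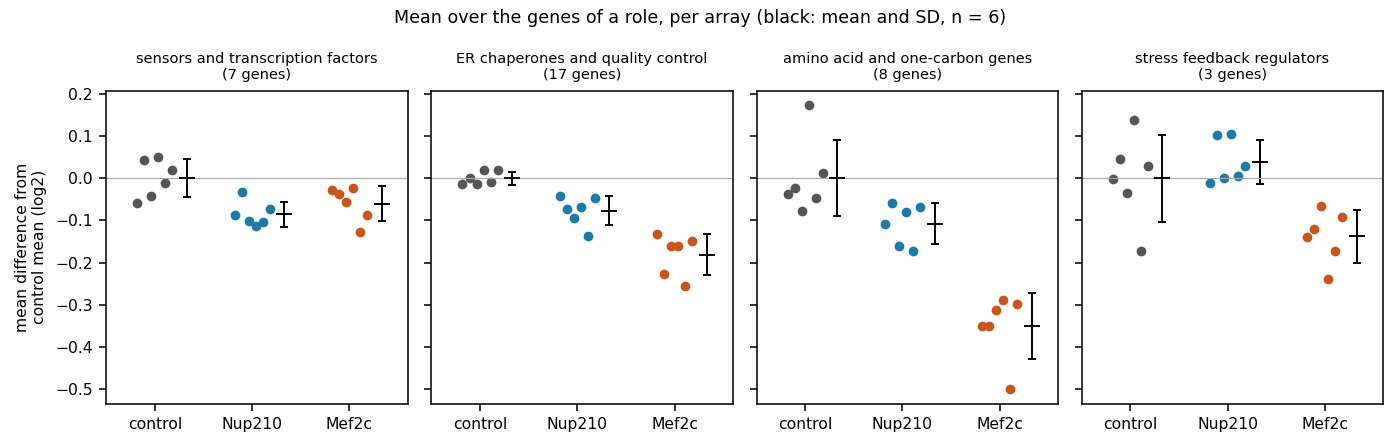
Mean log2 difference from the control mean over the genes of each role, 1 point per array, with mean and SD of 6 arrays in black. For the amino acid genes the Mef2c arrays lie from -0.50 to -0.29, and for the chaperone genes from -0.26 to -0.13. The Nup210 arrays lie from -0.17 to -0.06 and from -0.14 to -0.04 in these roles.

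Proliferation and myoblast markers differed between the groups. Top2a (log2 difference -0.83, adjusted p = 1.06e-06) and Ccna2 were lower with Mef2c shRNA, Myf5 was higher (0.33, adjusted p = 0.0192), and Mki67 (-0.66, adjusted p = 0.158) and Pax7 were not called. Myf5 was also higher with Nup210 shRNA (0.66, adjusted p = 9.48e-05), and the other 4 were not called there. The array mean of these 5 markers ran from 8.37 to 8.67 in the control group, from 8.53 to 8.89 with Nup210 shRNA and from 7.87 to 8.36 with Mef2c shRNA. None of the 5 was under the background guide in any group. Of the 9 myotube markers, Myh3 and Acta1 were lower with Mef2c shRNA and Myh3, Ckm and Mymk with Nup210 shRNA. Their array mean ran from 11.75 to 11.82 in the control group, from 11.64 to 11.74 with Nup210 shRNA and from 11.62 to 11.76 with Mef2c shRNA. Of 5 fibroblast markers, only Col1a1, a collagen folded in the ER, was called lower with Mef2c shRNA (-0.55, adjusted p = 0.00978). With Mef2c shRNA 2 of the 5 had means below control, and the list median was 0.067. None was called with Nup210 shRNA. All 5 were above the background guide in both shRNA groups, and in the control group Thy1 alone was under it. The part of these marker changes in the falls of the chaperone and amino acid genes was not tested. In such bulk RNA, fewer cells of a type and less RNA per cell cannot be told apart.

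Further genes of the pathway, outside the 35, were counted in the same way. Shares of all genes are given from that fit and from the fit without genes below the background guide. The lists were not counted in the second of these fits. Of 37 amino acid response genes, 19 fell and 1 rose with Mef2c shRNA (median -0.15), and 8 fell and 1 rose with Nup210 shRNA (median -0.093). The falls were 51.4% and 21.6% of the list, beside 6.42% and 5.11% of all genes in the same fit. The fit without genes below the guide gave 13.7% and 11%. With Mef2c shRNA the largest falls were those of Aldh1l2, a mitochondrial folate enzyme (-0.76, adjusted p = 1.88e-05), and Bcat1, a transaminase of branched-chain amino acids (-0.66, adjusted p = 5.14e-06). The gene that rose was Vldlr, a lipoprotein receptor (0.33, adjusted p = 0.029). With Nup210 shRNA the largest falls were those of Nupr1, a stress-induced chromatin protein (-0.40, adjusted p = 0.000155), and Aldh1l2 (-0.34, adjusted p = 0.0226). Sesn2, a leucine-binding inhibitor of mTORC1, rose (0.39, adjusted p = 0.0107). Directly compared, 10 of the 37 were higher with Nup210 than with Mef2c shRNA, led by Bcat1 (0.51, adjusted p = 4.24e-05) and Mthfd1l (0.49, adjusted p = 0.000305). Nupr1 (-0.30, adjusted p = 0.000788) and Cebpb (-0.24, adjusted p = 0.0239) were lower. As shares of the list these were 27.0% higher and 5.41% lower, beside 7.1% and 6.93% of all genes in the same fit. The fit without genes below the guide gave 14.2% and 13.7%. The lower count is under both of its shares and is not read as a result about the list.

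Of 39 genes of ER translocation, folding and quality control, 5 fell and 3 rose with Mef2c shRNA (median -0.060), and 7 fell and 3 rose with Nup210 shRNA (median -0.031). With Mef2c shRNA these were 12.8% and 7.69% of the list, beside 6.42% and 4.34% of all genes in the same fit. In the fit without genes below the guide 13.7% and 9.53% of genes fell and rose, but the list was not counted there. These counts are therefore not read as a result about this list. With Nup210 shRNA the shares were 17.9% and 7.69%, beside 5.11% and 3.05% of all genes in the same fit. The fit without genes below the guide gave 11% and 7.14%. Txndc5, a disulfide isomerase (-0.36, adjusted p = 9.34e-05), and Ero1a, the main ER oxidase (-0.31, adjusted p = 9.48e-05), had the largest falls with Mef2c shRNA. Wfs1, an ER membrane protein mutated in Wolfram syndrome (0.44, adjusted p = 0.00103), and Atf6b, the relative of Atf6 (0.19, adjusted p = 0.00329), had the largest rises. With Nup210 shRNA, Selenos, a selenoprotein of ER degradation (-0.25, adjusted p = 0.0353), and Spcs2, a signal peptidase subunit (-0.18, adjusted p = 0.0134), fell most. Mbtps1, the protease that makes the first cut in ATF6 (0.17, adjusted p = 0.0152), and Edem2 (0.15, adjusted p = 0.0279) rose most. Between the shRNA groups, 5 of the 39 were higher with Nup210 shRNA, led by Txndc5 (0.49, adjusted p = 2.62e-06) and Derl3 (0.31, adjusted p = 0.0322), and 4 were lower, led by Wfs1 (-0.53, adjusted p = 0.000138) and Srpr (-0.15, adjusted p = 0.00434). Derl3 had means of 5.21 with Mef2c shRNA and 5.33 in the control group, under the background guide, and 5.53 with Nup210 shRNA, close to it, so the size of its difference cannot be told from the background level. The higher and lower genes were 12.8% and 10.3% of the list, beside 7.1% and 6.93% of all genes in the same fit. The fit without genes below the guide, in which this list was not counted, gave 14.2% and 13.7%.

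Among 6 genes of the eIF2 kinases, eIF2 and its phosphatase, 1 fell in each comparison with control. That is 16.7% of the list, beside 6.42% of all genes with Mef2c shRNA and 5.11% with Nup210 shRNA in the same fit. The fit without genes below the guide gave 13.7% and 11%. These counts of 1 gene are near those last shares and are not read as a result about the list. Ppp1r15b, which keeps eIF2 dephosphorylated in unstressed cells, fell to 70.5% of control with Mef2c shRNA (log2 difference -0.50, adjusted p = 3.53e-06) and was 0.52 higher with Nup210 than with Mef2c shRNA (adjusted p = 1.41e-06). Eif2ak1, the heme-regulated eIF2 kinase, fell by 0.17 with Nup210 shRNA (adjusted p = 0.0105) and was lower with Nup210 than with Mef2c shRNA (log2 difference -0.14, adjusted p = 0.0181). These lists, like the members, were chosen with earlier results of these arrays known.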

How the data were processed

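Each of 18 samples of C2C12 cells was measured on a one-colour array, 6 per shRNA group as their titles give them. The file deposited by the authors holds log2 expression per probe set. RMA and Partek are named in the submitters' processing notes; settings, versions and a genome build were not given in the sources used here. Such processing makes array distributions alike and compresses differences of dim genes. Array medians ran from 5.48 to 5.57. The number of arrays limits the precision.

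The platform annotation named the probe sets; 22180 genes were each represented by their brightest probe set, by mean over all arrays, among those with a single symbol. One model with a mean for each group was fitted over all arrays in limma 3.58.1 (R 4.3.3), leaving 15 residual degrees of freedom, and calls used an adjusted p (Benjamini-Hochberg, over all genes) under 0.05. Every adjusted p is from this fit unless another test is named. Percent of control is 2 to the power of the log2 difference. Simulated data with known changes served to check the fit.

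The members and lists were chosen with earlier results of these data known. The rule for named genes took all members, with values per array for up to 4 called members of largest change per role and comparison, and the 2 largest called rises and falls of each further list in each comparison. Psph was named in addition, beside the serine synthesis enzymes among the members. Promoter windows came from RefSeq (GRCm38.p6), matched by symbol. Alternatives were a block for the replicate number, only the groups compared, renewed quantile normalization, median centring, dim genes left out, the mean of all probe sets, a trended robust prior, array weights, an adjusted p under 0.01 and each array left out in turn. Fits without Nup210 arrays 2, 4 and 5, and without array 5 of each group, were chosen after seeing the data.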

Additional observations from a re-analysis of the deposited data

Results flagged for a closer look

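In 8 of 105 sets of 6 arrays (35 members in 3 groups), 1 array lay apart from the other 5 by Dixon's test at the 95% level, and chance alone gives about 1 in 20. Control array 4 was the highest of its group for Mthfd2, at 9.88 with the next at 9.77, and for Slc7a11, at 4.82 with the next at 4.51. Mef2c array 5 was the lowest for Mthfd2, at 9.01 with the next at 9.33, and for Ern1, at 8.11 with the next at 8.28. Mef2c array 1 was the highest for Calr, at 12.20 with the next at 12.11, and for Manf, at 6.65 with the next at 6.44. Nup210 array 5 was the lowest for Ero1b, at 5.81 with the next at 6.14. Control array 5 was the lowest for Trib3, at 5.66 with the next at 6.06.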

How the results depend on the processing

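No difference called in a member changed sign in any alternative. Of the calls, 4 of 6 (Nup210 shRNA against control), 14 of 21 (Mef2c shRNA against control) and 9 of 18 (between the shRNA groups) held in every alternative; leaving out 1 array at a time kept 5, 15 and 13. The cause of the changes below was not tested.

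For Nup210 shRNA against control, the count of chaperone genes called lower went from 3 to 1 without Nup210 arrays 2, 4 and 5. That of amino acid genes went from 1 to 3 with the replicate number as a block (Asns and Mthfd2 added), to 2 with a trended robust prior, and between 1 and 3 with single arrays left out. The count of members called higher ran from 0 to 1 with single arrays left out. For Mef2c shRNA against control, the 1 member called higher became 0 with only the 2 groups compared, with median centring and at 0.01, and ran from 0 to 1 with single arrays left out. Between the shRNA groups, members called lower went from 4 to 1 at 0.01 and to 1 without Nup210 arrays 2, 4 and 5, and ran from 2 to 5 with single arrays left out. Members called higher went from 14 to 9 without Nup210 arrays 2, 4 and 5; the calls lost in that fit were Atf4, Dnajc3, Manf, Asns and Phgdh, and, among those lower, Xbp1, Dnajb11 and Psat1. Amino acid genes called higher went from 5 to 3 with only the 2 groups compared, with median centring, at 0.01 and without Nup210 arrays 2, 4 and 5, and ran from 3 to 5 with single arrays left out.

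The labels state no pairing, so the replicate numbers were not taken as one in the main fit. The deviations of same-numbered arrays correlated from -0.22 to 0.46, with 12 of 18 pairs over 0.1. By this measure 13 of 18 arrays were closest to their own number. Many arrays of the same number thus shared some variation, which the main fit does not model. With the block, calls were also added for Atf4 with Nup210 shRNA (adjusted p = 0.0453), for Psat1 and Chac1 with Mef2c shRNA and for Pdia6 between the shRNA groups, and Phgdh was lost there (adjusted p = 0.0659). Over all genes, centring arrays on their medians changed the split for Nup210 shRNA from 676 higher and 1133 lower to 395 and 1177, and leaving out Nup210 arrays 2, 4 and 5 left 153 and 410. Levels near the background guide limit what can be said of Slc7a11, of Derl3 and of Cth with Mef2c shRNA.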

Other observations

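Pdia4, an ER disulfide isomerase of the same list, was measured on a probe set that also carries the microRNA gene Mir704, and it was not tested. Its values ran from 7.88 to 8.16 on the control arrays, from 7.90 to 8.04 with Nup210 shRNA and from 7.55 to 7.70 with Mef2c shRNA. All Mef2c arrays were below all other arrays.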
